A study of Rattus norvegicus with 8 samples.

Results

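The gp130, STAT3 and SOCS genes were read in isolated rat hearts perfused with or without doxorubicin, an anthracycline anticancer drug that intercalates into DNA and poisons topoisomerase II. The members were 10 named genes, Socs1, Socs2, Socs3, Cish, Lif, Lifr, Osmr, Il6st, Il6r and Stat3, and every probe set to which the platform annotation gives one of these symbols alone. This rule found 16 probe sets of 9 genes among 31042 probe sets of 14217 genes. Osmr had no such probe set, so its expression is not analysed here. Hearts of male Wistar rats of about 300 g were excised and fed through the aorta in a Langendorff apparatus, with perfusate that passed once and was not returned. They were perfused for 2 h with no drug (control, 4 hearts) or with 2 µM doxorubicin (4 hearts), 1 Affymetrix array per heart. By their labels the arrays of a group are 4 biological replicates, and the labels give neither the age of the rats nor the part of the heart taken. A heart without circulating blood can show only the responses of the cells it holds.

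Cytokines of the interleukin 6 family bind a receptor of their own and then the shared chain gp130, encoded by Il6st. JAK kinases bound to gp130 phosphorylate it and the transcription factor STAT3, which moves to the nucleus and turns on genes, among them those of its own inhibitors. SOCS proteins and CIS, encoded by the Socs genes and Cish, bind the active receptors or kinases and close the loop, so that Socs3 mRNA is a common readout of recent STAT3 activity. In the heart this pathway is known for protecting muscle cells under stress and for its part in hypertrophy.

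The promoter of Cish is shown because it is the member with the most STAT motif matches before its start. RefSeq promoter windows (assembly GRCr8) were found for 8 of the 10 members, with none for Socs2 and Lif. The STAT motif searched was TTCNNNGAA, which reads the same on both strands, in the 250 bases before the annotated start. It was found in 7.67% of 33469 windows of this length. Cish had 4 matches, at -241 to -233, -230 to -222, -136 to -128 and -119 to -111 from the start. Of all windows, 2 had 4 or more matches, 0.00598%, and that of Cish is one of them. The 250 bases before the start of Cish lie on the plus strand at chr8:116850719-116850968, and the capitals mark the matches.
Cish: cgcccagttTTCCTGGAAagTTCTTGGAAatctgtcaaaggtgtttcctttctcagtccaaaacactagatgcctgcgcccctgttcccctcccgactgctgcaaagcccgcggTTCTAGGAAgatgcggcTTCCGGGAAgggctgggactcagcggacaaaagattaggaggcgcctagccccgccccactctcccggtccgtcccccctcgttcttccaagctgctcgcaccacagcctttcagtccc

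The first and the last of these matches also fit the tighter form TTCCNGGAA, a form held by 1.07% of all windows and by no other member's. Socs1 had 1 match of the wider motif, at -196 to -188. The windows of Socs3, Lifr, Osmr, Il6st, Il6r and Stat3 had none, but in these 6 genes the window precedes an inner start. How far that start lies from the outermost one was not checked, so the bases before the outermost start may not have been searched. The AP-1 motif TGANTCA, held by 6.34% of windows and likewise the same on both strands, was found at -33 to -27 of Osmr and in no other member. A match is a run of letters and says nothing of binding.

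**Figure D1:**
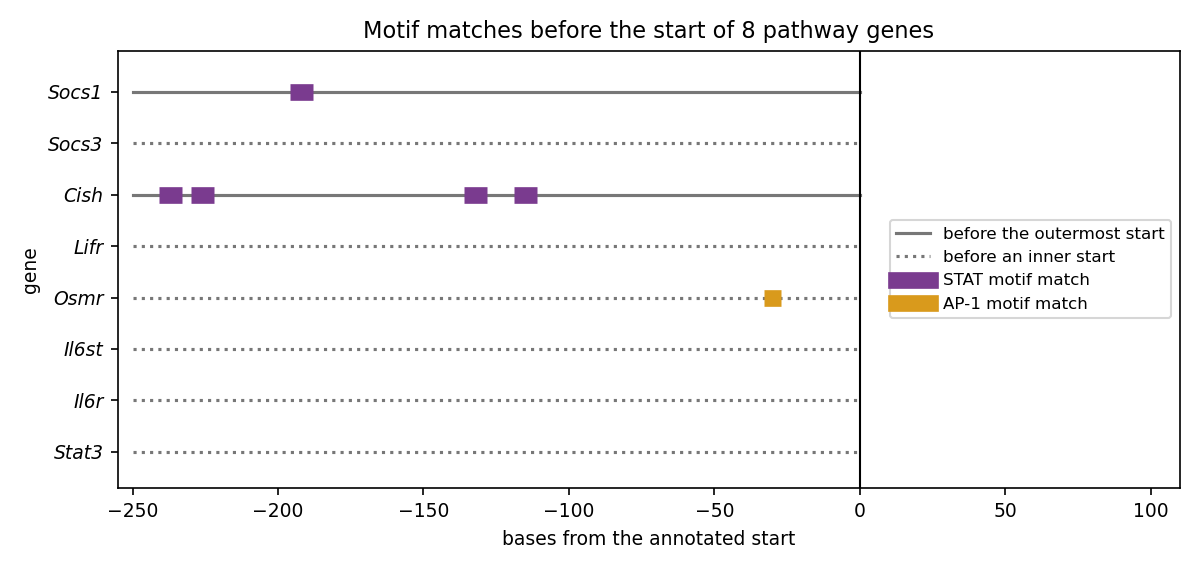
Matches of the STAT motif (purple) and the AP-1 motif (orange) in the 250 bases before the annotated start of 8 pathway genes, with distance from the start in bases on the x axis. Solid lines are windows before the outermost start (2 genes) and dotted lines windows before an inner start (6 genes). Cish carries 4 STAT matches and Socs1 carries 1.

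Socs3, the feedback inhibitor that binds gp130, fell 1.67-fold in doxorubicin hearts and was the 1 member past the threshold. Both probe sets of Stat3 and both of Cish also lay lower, with 95% intervals below 0, without passing after adjustment. Of the receptor genes, Lifr lay higher on probe set 1395957_at (0.36 log2, 95% interval 0.14 to 0.59), also without passing. The other probe set of Lifr and those of Il6st and Il6r had intervals that included 0. By probe set, 1 of 16 was called lower (limma adjusted p under 0.05), 0 higher and 15 neither. At an unadjusted limma p under 0.05, 5 were lower and 1 was higher. The share of all probe sets or genes at this unadjusted cut is not given, here or for the lists below. Such counts therefore cannot be read as an excess. Of all 31042 probe sets 2.21% were called, 1.52% lower and 0.689% higher. By gene, with each gene read through its probe set of the highest mean, 1 of 9 was called, against 2.97% of 14217 genes. The median difference was -0.22 log2 over the 16 probe sets and -0.03 over the 9 genes, beside -0.0019 over all probe sets and 0.0063 over all genes. Of the 16 differences 12 were below 0, as were 15785 of the 31042. Levels below are log2 intensity, differences are doxorubicin minus control in log2 with their standard error (SE) from limma, and means carry the standard deviation (SD) over 4 hearts. Doxorubicin 4 stood apart in adipocyte and atrial markers: its Ucp1 level was 9.54 (4.27 to 6.62 in the other 7 hearts), its Adipoq level 8.04 (4.52 to 6.08) and its Nppa level 13.30 (9.88 to 12.37). Calls of members and of other pathway genes that change without this heart are given without it as well.

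**Figure D2:**
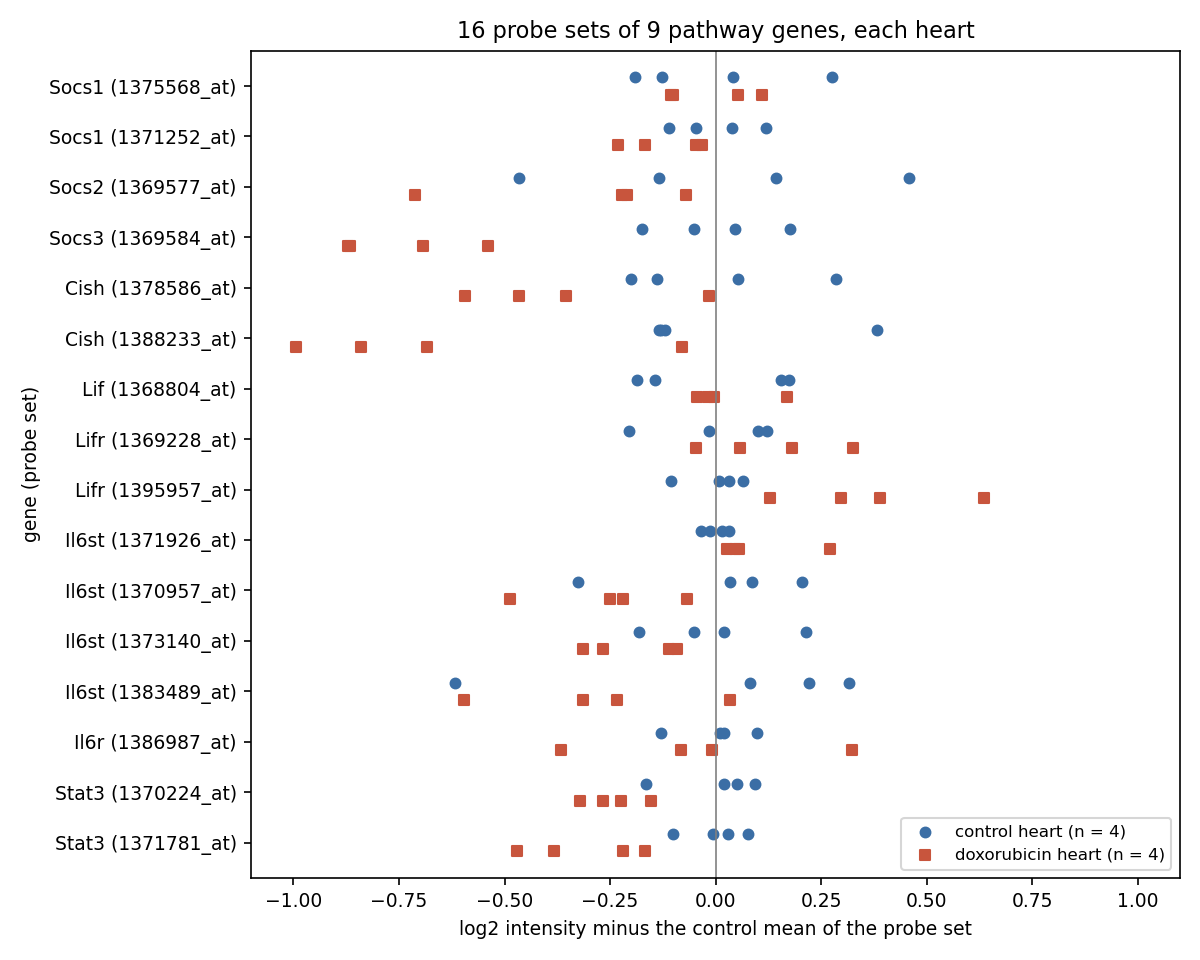
Log2 intensity of each heart minus the control mean of the probe set (x axis) for the 16 probe sets of 9 genes (y axis), with control hearts as blue circles and doxorubicin hearts as red squares (n = 4 each). The groups are apart for Socs3 and 1371781_at of Stat3 (doxorubicin lower) and for 1395957_at of Lifr (doxorubicin higher), and overlap for the other 13.

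Of the 4 member inhibitors, Socs3 was called and Cish, Socs2 and Socs1 were not. Socs3 (probe set 1369584_at) read 6.30, 6.17, 6.39 and 6.52 log2 in control hearts 1 to 4 and 5.48, 5.65, 5.48 and 5.81 in doxorubicin hearts 1 to 4. Every doxorubicin heart lay below every control heart, with a gap of 0.37 between the groups. The means were 6.35 ± 0.15 and 5.61 ± 0.16 (SD, n = 4), a difference of -0.74 (SE 0.10, limma adjusted p = 0.00369). This is 1.67-fold lower, with a 95% interval of 1.44 to 1.95-fold. Of all 31042 probe sets, 263 had a more negative difference. The call held without any one of the 8 hearts (adjusted p up to 0.0169). The hybridization controls, transcripts added to the labelled sample, read 10.32 ± 0.17 log2 in control and 10.02 ± 0.08 in doxorubicin arrays (SD, n = 4; exact permutation p = 0.0286, two-sided, the smallest that 70 splits allow). With their level as a covariate in limma the difference of Socs3 was -0.75 (SE 0.17) and the call was lost (adjusted p = 0.24). Every doxorubicin array read lower in these controls than every control array. This fit therefore cannot separate their level from the treatment. The difference of Socs3 hardly moved, while its SE rose from 0.10 to 0.17.

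Cish encodes CIS, an inhibitor named for cytokine-inducible SH2 protein and known as a target of STAT5. Its probe set 1388233_at read 6.50, 5.98, 5.99 and 5.996 in control hearts 1 to 4 and 5.12, 5.43, 5.28 and 6.04 in doxorubicin hearts 1 to 4. Doxorubicin hearts 1 to 3 lay below every control heart, while doxorubicin 4 lay just above control hearts 2 to 4. The difference was -0.65 (SE 0.19, adjusted p = 0.147), and without doxorubicin 4 it was -0.84 and passed (limma adjusted p = 0.0216). The other probe set, 1378586_at, read 6.74, 6.51, 6.25 and 6.32 against 6.10, 5.86, 5.99 and 6.44, a difference of -0.36 (SE 0.14, adjusted p = 0.287). Here too doxorubicin 4 was the highest of its group, above control hearts 3 and 4, and this heart, apart in its fat and atrial markers, also had the highest Socs3 level among the doxorubicin hearts. Without it this probe set stood at -0.47 (limma adjusted p = 0.123) and Socs3 at -0.81 (limma adjusted p = 0.00417). The part of its cell makeup in these levels was not tested.

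Socs2, an inhibitor best known for damping growth hormone signalling, spread widely among hearts of one group. It read 6.19, 5.27, 5.88 and 5.60 in control hearts 1 to 4 and 5.52, 5.02, 5.66 and 5.51 in doxorubicin hearts 1 to 4. The groups overlapped, the difference was -0.30 (SE 0.20, adjusted p = 0.583), and its 95% interval ran from -0.74 to 0.14. Single hearts moved it, to -0.15 without control 1, -0.17 without doxorubicin 2 and -0.46 without control 2, and the hybridization covariate gave -0.06. Socs1, the inhibitor that blocks JAK kinases directly, read 5.53 ± 0.21 in control and 5.52 ± 0.11 in doxorubicin hearts (SD, n = 4) on probe set 1375568_at. Its difference was -0.01 (SE 0.10, adjusted p = 0.983), with an interval of -0.24 to 0.22, which does not reach the -0.74 of Socs3. The dimmer Socs1 probe set 1371252_at stood at -0.12 (SE 0.07, adjusted p = 0.549).

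Socs3 was then set against 4 other members within each heart, a comparison made after the values were seen. The log2 difference of Socs3 to Socs1 was 0.82 ± 0.26 in control and 0.08 ± 0.19 in doxorubicin hearts (SD, n = 4), a shift of -0.73. The groups did not overlap (exact permutation p = 0.0286, the least that 70 splits can give, or 0.0571 adjusted over the 4 pairs). Against Stat3 the shift was -0.50, also with groups apart (exact permutation p = 0.0286, adjusted p = 0.0571). Against Socs2 it was -0.44 (exact permutation p = 0.143) and against Cish -0.39 (exact permutation p = 0.114), both with overlapping groups and an adjusted p of 0.143. Cish was read here by its brighter probe set, 1378586_at (-0.36). Its other probe set, 1388233_at, fell further (-0.65) and was not compared with Socs3. With 2 of 4 pairs at the smallest possible p, no adjusted p could come under 0.05, so these tests do not settle whether Socs3 fell further than Socs1 or Stat3.

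**Figure D3:**
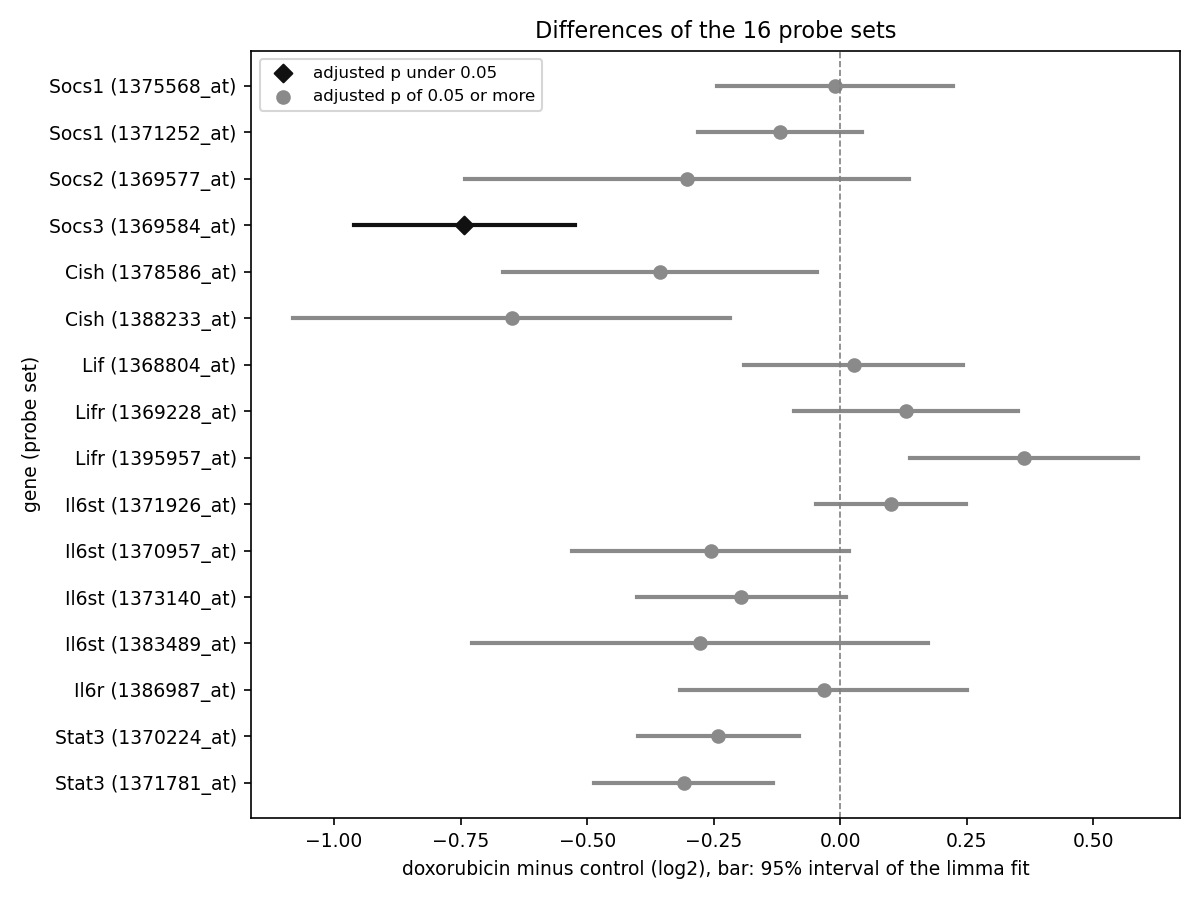
Doxorubicin minus control difference in log2 (x axis) of the 16 probe sets (y axis), with bars for the 95% interval of the limma fit over 8 hearts. The black diamond, Socs3 at -0.74, is the one probe set with an adjusted p under 0.05, and the grey circles range from -0.65 (Cish) to 0.36 (Lifr).

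Stat3, the transcription factor of the pathway, is read by a pair of probe sets that gave like differences. Probe set 1370224_at read 9.75, 9.94, 9.97 and 10.01 in control hearts 1 to 4 and 9.70, 9.77, 9.60 and 9.65 in doxorubicin hearts 1 to 4. Control 1 lay just below doxorubicin 2, and the other control hearts lay above every doxorubicin heart. The difference was -0.24 (SE 0.07, adjusted p = 0.142), and without control 1 it was -0.30 and passed (limma adjusted p = 0.0496). Probe set 1371781_at read 8.05, 8.18, 8.15 and 8.23 against 7.99, 7.93, 7.68 and 7.77, with every doxorubicin heart below every control heart. Its difference was -0.31 (SE 0.08, adjusted p = 0.0894), and it passed when quantile normalization was repeated (-0.34, limma adjusted p = 0.0495). Each of these Stat3 probe sets passed in only 1 of 15 alternatives. Leaving out 1 heart gave a limma adjusted p of up to 0.311 for 1370224_at and up to 0.214 for 1371781_at. Of the 16 member probe sets, 3 had groups that did not overlap, 2 with doxorubicin lower (4.02% of all probe sets) and 1 higher (4.52%), together against 8.55% of all.

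Among the receptors, Il6st, the gp130 chain shared by the whole cytokine family, was read by 4 probe sets that differed in sign. The brightest, 1371926_at, read 10.15, 10.19, 10.21 and 10.16 in control hearts 1 to 4 and 10.20, 10.45, 10.23 and 10.23 in doxorubicin hearts 1 to 4, with doxorubicin 2 above all others. Its difference was 0.10 (SE 0.07, adjusted p = 0.596). The remaining ones stood at -0.26 (1370957_at, SE 0.12), -0.20 (1373140_at, SE 0.09) and -0.28 (1383489_at, SE 0.20), with adjusted p of 0.407, 0.4 and 0.637. Leaving out 1 heart gave -0.36 to -0.18, -0.26 to -0.12 and -0.48 to -0.17, with 1383489_at at -0.48 without control 4 and at -0.17 without control 3 or doxorubicin 2, and 1373140_at at -0.12 without control 3. Within each heart, the brightest probe set exceeded the mean of the other 3 by 2.05 ± 0.18 in control and 2.39 ± 0.27 in doxorubicin hearts (SD, n = 4). This shift of 0.34 had an exact permutation p of 0.0571, or 0.286 adjusted over the 5 genes with several probe sets. The same comparison gave adjusted p of 0.286 to 0.371 for Cish, Lifr, Stat3 and Socs1.

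Lifr, the receptor chain for leukaemia inhibitory factor, had one probe set with groups apart. It was 1395957_at, which read 4.48, 4.34, 4.51 and 4.46 in control hearts 1 to 4 and 4.84, 5.09, 4.58 and 4.75 in doxorubicin hearts 1 to 4. All doxorubicin hearts lay above all control hearts, by 0.06 at the narrowest point, and the difference was 0.36 (SE 0.10, adjusted p = 0.118). The brighter probe set 1369228_at overlapped between the groups and stood at 0.13 (SE 0.10, adjusted p = 0.658). Il6r, the receptor chain specific to interleukin 6, read 5.84 ± 0.09 in control and 5.81 ± 0.28 in doxorubicin hearts (SD, n = 4), a difference of -0.03 (SE 0.13, adjusted p = 0.955). Its doxorubicin hearts ran from 5.47 (doxorubicin 3) to 6.16 (doxorubicin 2) and so enclosed all 4 control hearts.

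Lif, the cytokine itself, was dim. It read 4.09 ± 0.19 in control and 4.11 ± 0.10 in doxorubicin hearts (SD, n = 4), both under 4.16 log2, the level below which the dimmest 25% of probe sets lie. Its difference was 0.03 (SE 0.10, adjusted p = 0.952), and at this signal a change of Lif could have gone unseen.

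The other genes of the pathway were read from 5 lists with the members left out, 75 genes of which 70 had a probe set. Of the 70, 5 fell, none rose (4 higher and 19 lower at an unadjusted limma p under 0.05) and 65 missed the threshold. Their median was -0.04. By this reading 2.97% of all genes were called, 2.17% lower and 0.802% higher.

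None of 6 gp130 cytokines passed in limma, with 1 higher and 0 lower unadjusted and a median of 0.02. Il6, which names the family, read 8.37, 8.92, 8.55 and 7.58 in control hearts 1 to 4 and 8.14, 8.13, 7.08 and 8.76 in doxorubicin hearts 1 to 4. The groups overlapped over most of their range, and the difference of -0.33 had an SE of 0.36 (adjusted p = 0.787). Control 4 had the lowest Il6 and the highest Socs3 of its group. Doxorubicin 4 had the highest Il6 (8.76) and the highest Socs3 (5.81) of its group. Doxorubicin 3 had the lowest Il6 and the lowest Socs3 (5.476, beside 5.482 in doxorubicin 1). Whether Il6 and Socs3 go together over hearts was not tested. Ctf1, which encodes the heart-active cytokine cardiotrophin 1, stood at 0.26 (SE 0.07, adjusted p = 0.113) with groups apart. Osm, which encodes oncostatin M, stood at -0.08 (SE 0.08) and Cntf, which encodes ciliary neurotrophic factor, at 0.10 (SE 0.15). The control and doxorubicin means of Osm (4.30 and 4.22) and Il11 (4.34 and 4.37) lay just above the dim level of 4.16. Those of Clcf1 (3.34 and 3.35) lay below it. A change of these 3 cytokine genes could have gone unseen.

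Of 11 other receptors and adaptors none passed in limma (0 higher and 1 lower unadjusted, median 0.02). The lower one was Ifngr1, an interferon gamma receptor chain, at -0.29 (SE 0.07, adjusted p = 0.0766). The adaptor gene Grb2 stood at 0.16 (SE 0.08), the growth hormone receptor gene Ghr at 0.20 (SE 0.10) and the docking protein gene Gab1 at -0.18 (SE 0.11). Of 9 JAK kinases and other STAT factors none passed in limma either (2 higher and 1 lower unadjusted, median -0.0060). Tyk2, a kinase that can bind gp130, stood at 0.29 (SE 0.07, adjusted p = 0.0675) with all doxorubicin hearts above all control hearts. It passed as higher with array weights (0.28, limma adjusted p = 0.0473) and when p was adjusted over genes, each by the mean of its probe sets (0.29, limma adjusted p = 0.0472). Stat2, a factor of interferon signalling, stood at 0.30 (SE 0.09, adjusted p = 0.134), with its second probe set near 0 (-0.0012). Jak2 stood at -0.34 (SE 0.11, adjusted p = 0.209) and Jak3 at -0.07 (SE 0.12).

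Of 13 other inhibitors 1 fell, none rose in limma (1 higher and 2 lower unadjusted) and 12 missed the threshold. The median was -0.03. The one was Ptpn2, which encodes a phosphatase that dephosphorylates JAK kinases and STAT factors in the nucleus and cytoplasm. It read 8.82, 8.91, 8.79 and 8.87 in control hearts 1 to 4 and 8.31, 8.60, 8.27 and 8.40 in doxorubicin hearts 1 to 4, with no overlap. The difference was -0.46 (SE 0.08, limma adjusted p = 0.0147), lost without doxorubicin 1 (adjusted p = 0.0579), while a dim second probe set stood at 0.07. The mean of both probe sets did not pass (-0.19, limma adjusted p = 0.139). Pias1, which encodes an inhibitor of STAT binding to DNA, stood at -0.26 (SE 0.07, adjusted p = 0.121) and its second probe set at -0.34. The mean of both Pias1 probe sets passed as lower when p was adjusted over genes (-0.30, limma adjusted p = 0.0407). Pias2 stood at 0.14 (SE 0.06), and Ptpn11, which encodes the phosphatase SHP2, at 0.17 (SE 0.06) with a second probe set at -0.07.

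**Figure D4:**
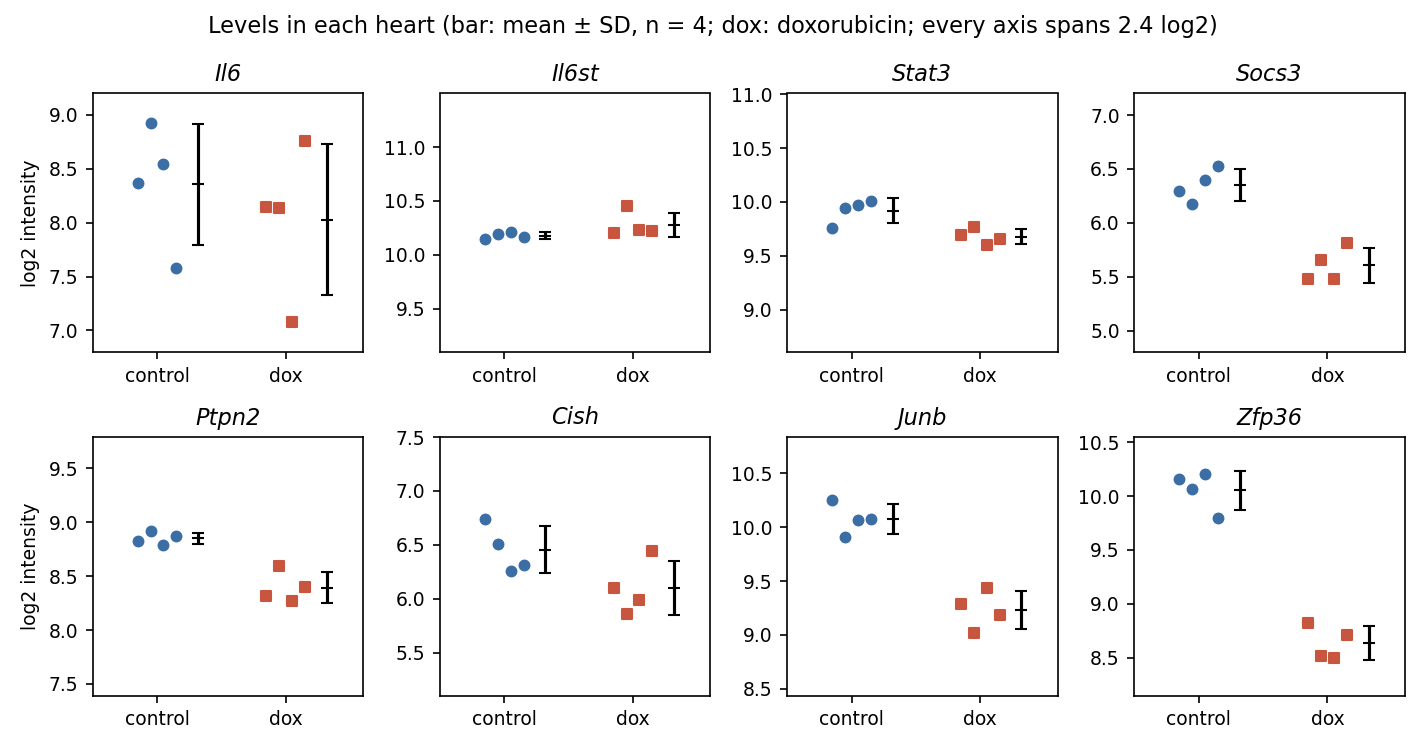
Log2 intensity (y axis, 2.4 log2 in every panel) in each control heart (blue circles) and doxorubicin heart (red squares) for 8 genes from cytokine to target, with mean ± SD (n = 4) beside them. Socs3, Ptpn2, Junb and Zfp36 have no overlap between groups, while Il6, Il6st, Stat3 and Cish overlap.

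Zfp36, Junb, Nfil3 and Pim3 fell among the genes known as targets of STAT3. Of 31 measured, 4 fell, none rose in limma (0 higher and 15 lower unadjusted) and 27 missed the threshold. The median was -0.26, beside 0.0063 for all genes. The list was chosen with earlier results of these data known, so this contrast is a description and not a test of STAT3 targets. Zfp36, which encodes a protein that destabilizes cytokine mRNA, read 8.49 to 8.83 in doxorubicin and 9.79 to 10.20 in control hearts, a difference of -1.42 (SE 0.11, limma adjusted p = 1.3e-04). Junb, an AP-1 transcription factor, read 10.25, 9.91, 10.06 and 10.08 in control hearts 1 to 4 and 9.29, 9.02, 9.43 and 9.19 in doxorubicin hearts 1 to 4. Its groups were far apart, with a difference of -0.84 (SE 0.10, limma adjusted p = 0.00213). The 2 other genes called were Nfil3, a transcription factor of cytokine and clock control (-1.49, SE 0.28, adjusted p = 0.0267), and the kinase gene Pim3 (-0.27, SE 0.06, adjusted p = 0.0442). Nfil3 lost its call without control 2, doxorubicin 1, doxorubicin 3 or doxorubicin 4 (adjusted p up to 0.0946), and with trend and robust eBayes (limma adjusted p = 0.0519). Pim3 lost its call without any one of the 8 (up to 0.147), with median centring, with the dimmest probe sets left out and with trend and robust eBayes. With each gene read by the mean of its probe sets 8 of the 31 were called, all lower: Cebpd (-0.53), Mcl1 (-0.26), Irf1 (-0.45) and Ccl2 (-0.64) besides these 4. The share of all genes called by that reading is not given here. Without doxorubicin 1, 2 of the 70 genes were called, and without doxorubicin 3, 3 were. Without doxorubicin 4, 5 were, with Irf1 and Ccl2 in place of Nfil3 and Pim3. In these fits 397, 435 and 506 of all 31042 probe sets were called, beside 687 with all hearts. With the level of the hybridization controls as a covariate limma called 1 of the 70, Zfp36 (-1.17), and 92 of the 31042 probe sets. The differences of the others then were -0.81 for Junb, -1.84 for Nfil3, -0.35 for Pim3 and -0.55 for Ptpn2, with adjusted p of 0.194 to 0.394. Such a fit cannot separate this level from the treatment. Several genes of this list, such as Zfp36 and Junb, also answer to other signals, and acute phase genes of the list such as A2m, Fga, Fgb and Fgg lay near the dim level.

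**Figure D5:**
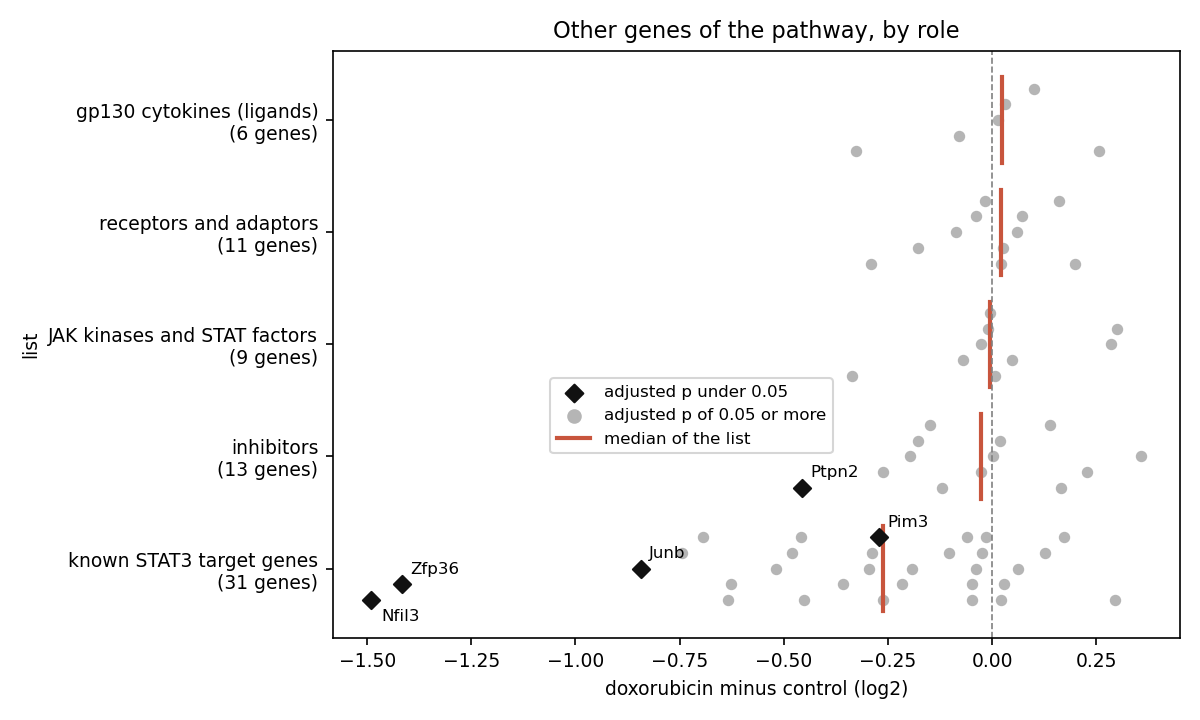
Doxorubicin minus control difference in log2 (x axis) of 70 other genes of the pathway in 5 lists (y axis), with black diamonds for genes with an adjusted p under 0.05, grey circles for the rest and a red line at the median of each list. The medians lie between -0.03 and 0.02 for 4 lists and at -0.26 for the STAT3 targets, where 4 of 31 genes are called. The lists were chosen with earlier results of these data known.

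The genes whose pattern over the 8 hearts was most like that of Socs3 were sought among all 14217, by the root mean square distance between log2 profiles centred on their own means. Lmod2, which encodes a thin filament protein of heart muscle, was nearest at 0.10 log2 and had a difference of -0.64 (SE 0.08). Slc7a1, a transporter gene for cationic amino acids, followed at 0.10 with a difference of -0.69 (SE 0.10), and Efna1, which encodes an ephrin ligand, at 0.12 with -0.79 (SE 0.08). The median distance to Socs3 over all genes was 0.41, and the spread of Socs3 within groups was 0.15 (SD). These genes were chosen for this likeness over the same hearts, so their differences are a description.

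Cell type markers were read beside these results, since in tissue RNA fewer cells of a type and less RNA per cell cannot be told apart. The 6 measured cardiomyocyte markers had a summed intensity of 81420 to 83540 in control and 82200 to 85370 in doxorubicin hearts, none called. The 9 macrophage markers summed to 1716 to 2224 and 2001 to 2550, none called, while 4 of 5 neutrophil markers and 2 of 5 lymphocyte markers had means under the dim level. Of 6 endothelial markers 1 was called, Tie1, which was higher by 0.34 (SE 0.06, limma adjusted p = 0.0148), with sums of 2904 to 3158 and 2824 to 3284. The sums of 7 fibroblast markers (9857 to 15920 and 13320 to 17540) and of 6 smooth muscle and pericyte markers (1517 to 2525 and 1671 to 2427) overlapped between the groups, none called. Pdgfrb, of the latter, was lower in every doxorubicin heart than in any control heart by a small amount (-0.15, adjusted p = 0.238). Rgs5, of the same list, went the other way (0.31, SE 0.09, limma adjusted p = 0.135), with overlapping groups. Atrial markers varied most between hearts, with sums of 1214 to 10280 in control and 1441 to 20370 in doxorubicin hearts (4 markers, none called), and adipocyte markers ran from 2589 to 3060 and 2686 to 4945 (6 markers, none called). The part of these differences in cell makeup in the levels of Socs3, Ptpn2 and the target genes was not tested.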

How the data were processed

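The deposited table gives 1 intensity per probe set and array, computed by the authors with RMA (background correction, normalization across arrays and probe set summary), per the submitters' processing notes, with software and version not given in the sources used here. The intensity values were linear, so log2 was taken with no offset. Since RMA equalizes the arrays' distributions, a shift common to most mRNAs is lost. No detection calls, scan dates or genome build were used here. Of 31099 probe sets, 57 AFFX controls were left out. Symbols from the platform annotation were updated by gene ID through RefSeq (GRCr8): 20826 probe sets had 1 symbol (20758 IDs found), 436 several and 9780 none.

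Groups were compared with limma 3.58.1 (R 4.3.3; lmFit and eBayes on 8 arrays, no covariate, two-sided), with Benjamini-Hochberg adjustment over 31042 probe sets and a threshold of 0.05. The script was tested on simulated data. A gene was read by its probe set of the highest mean. From each list up to 4 genes with the smallest p were named, with any called ligand, receptor, kinase or inhibitor, and for a called member its 3 nearest profiles. The members and lists were chosen with earlier results of these data known. Intervals are 95%, and the number of arrays limits precision. Same-numbered hearts of the groups had deviations correlated at -0.18 to 0.06, so the numbers were not taken as pairs. No arrays held identical values. Alternatives were median centring, quantile normalization run again, leaving out the dimmest 25%, trend and robust eBayes, array weights, a replicate block, each array left out, the hybridization level as covariate and the mean of a gene's probe sets. Motif searches covered RefSeq windows. Figures used Python 3.11.15 and matplotlib 3.10.9.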

Additional observations from a re-analysis of the deposited data

Results flagged for a closer look

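In 32 groups of 4 hearts, 1 group for each member probe set and condition, 2 held a heart far from the others by Dixon's test, which flags about 1 in 20 groups by chance. On Cish probe set 1388233_at control 1 read 6.50 log2, while the other control hearts read 5.98 to 5.996; without control 1 the difference was -0.52 (limma adjusted p = 0.245, beside 0.147 with all hearts). On Il6st probe set 1371926_at doxorubicin 2 read 10.45 log2, while the other doxorubicin hearts read 10.20 to 10.23; without it the difference was 0.04 in place of 0.10.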

How the results depend on the processing

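Socs3 was called in 14 of 15 alternatives, with differences of -0.81 to -0.68, and was not with the hybridization covariate (adjusted p = 0.24; adjusted p 0.00192 to 0.0169 in the others). With that covariate limma called 0 member probe sets (4 at an unadjusted p under 0.05), 0 member genes (2 unadjusted) and 1 pathway gene, Zfp36, and differences of uncalled probe sets turned sign: Socs1 1375568_at 0.0291, Lif -0.15, Il6st 1373140_at 0.0511 and 1383489_at 0.19. The covariate fit called 92 of all 31042 probe sets, beside 687 without the covariate. Every doxorubicin array lay below every control array in the covariate. The lost calls and turned signs therefore cannot be assigned to that level or to the treatment. Repeated quantile normalization called 2 member probe sets, beside 739 of all 31042. The mean of a gene's probe sets, adjusted over 14217 genes, called 10 pathway genes. Of these 10, 8 were STAT3 targets, and 4 were also called by the representative probe set. Ptpn2 was not among the 10 (-0.19, limma adjusted p = 0.139). The share of all genes called by that reading is not given, so the 10 cannot be read as an excess. Leaving out 1 array gave 1 to 2 member probe sets, 1 to 2 member genes and 2 to 5 pathway genes, beside 397 to 854 of all 31042 probe sets. Without single arrays Socs1 1375568_at ran from -0.0744 to 0.0811, Lif from -0.0351 to 0.0848 and Il6r from -0.152 to 0.0778, and with median centring Socs1 stood at 0.0116. With the replicate block 1 member probe set (Socs3, limma adjusted p = 0.00769), 1 member gene and 4 pathway genes were called, beside 511 of all 31042 probe sets. The block ended the call of Pim3 (limma adjusted p = 0.131). Dim genes such as Lif are limited by signal near background.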
